A study of Mus musculus with 6 samples.

Results

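Notch signalling genes were followed in cultured mouse lung endothelial cells with and without added L1CAM, a cell adhesion molecule of the immunoglobulin superfamily. The set held 10 genes in 3 roles: the receptors Notch1, Notch2, Notch3 and Notch4, the ligands Dll1, Dll4, Jag1 and Jag2, and the target genes Hey1 and Hes1. All 10 were measured, each by 1 probe set annotated with only that gene's symbol, among 19938 genes on the arrays. The cells are of the C57BL/6 strain background and carry a stably introduced pcDNA3.1/Hygro(-) plasmid. In the control group that plasmid was the empty vector, and in the L1CAM group it held full-length mouse L1CAM. Every culture was grown for 4 days to confluence on crosslinked gelatin, in medium with 20% serum, heparin and endothelial growth supplement. There were 3 arrays per group, labelled as biological replicates from independent experiments. The labels name 1 transfectant per group and do not say whether it was a clone or a pool, so L1CAM and any difference between the transfectants cannot be told apart.

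Notch receptors are cell surface proteins that are switched on by Delta and Jagged ligands on a neighbouring cell. Ligand binding exposes the receptor to an ADAM protease and then to the gamma-secretase complex, which frees its intracellular domain. That fragment enters the nucleus, joins the DNA-binding protein RBPJ and switches on HES and HEY repressor genes. In endothelium, Dll4 is known for restraining the number of sprouting tip cells and for arterial fate, and Jag1 for opposing Dll4 in sprouting.

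Values are RMA expression values on the log2 scale, so a difference of 1 is a doubling. Differences are L1CAM minus control, with a moderated standard error (SE) from limma. A gene is called when limma's p, adjusted by the Benjamini-Hochberg method over all 19938 genes, lies below 0.05. L1cam itself rose from 6.86 ± 0.41 to 10.60 ± 0.12 (SD, n = 3 per group), a 13.4-fold difference with a limma adjusted p of 0.000112. The array medians lay between 6.55 and 6.58. All 12 endothelial markers listed, among them Cdh5, Pecam1 and Tek, were above the array median on all 6 arrays, though Vwf read only 6.82 to 6.88. In 8 of the 12 all L1CAM arrays lay below all control arrays, and in 1 above, against 16% and 18.6% of all genes. Of the 12, Cldn5 was called lower and Robo4 higher. Their mean was 11.33 to 11.35 on the control arrays and 11.29 to 11.33 on the L1CAM arrays. Of the pericyte and smooth muscle markers 7 of 10 were below the median on every array, as were 3 of 8 fibroblast, 4 of 7 leukocyte, 7 of 8 epithelial and 6 of 8 neuronal markers. Above it on every array were 1 pericyte and smooth muscle, 5 fibroblast, 3 leukocyte, 1 epithelial and 1 neuronal marker. Among these, the leukocyte marker Cd68 read 12.00 to 12.38 and the neuronal marker Nefl 11.38 to 11.86. The mean of the 10 pericyte and smooth muscle markers was 5.93 to 5.95 on the control arrays and 5.92 to 6.03 on the L1CAM arrays. L1CAM replicate 1 stood apart: it correlated across genes at 0.9948 and 0.9951 with the other L1CAM arrays, which correlated at 0.9986 with each other. It correlated about as highly with control replicates 1, 2 and 3, at 0.9952, 0.9935 and 0.9938. L1CAM replicates 2 and 3 correlated with the control arrays at 0.9878 to 0.9903. Relative to the control mean, the mean of 14 cell cycle genes was -0.46 in L1CAM replicate 1, and -1.68 and -1.59 in L1CAM replicates 2 and 3. For each member and each list, values or counts without L1CAM replicate 1 are therefore also given. These are bulk arrays, so more cells that express a gene and more RNA per cell cannot be told apart.

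The ligands held all the rises among the 10 genes. Jag2, Dll4 and Jag1 rose in L1CAM cells, by 1.56-fold, 1.54-fold and 1.21-fold. Neither the 4 receptors nor the targets Hey1 and Hes1 had a member that passed the test. In all, 3 of 10 members were higher and 0 lower. Among all genes 6.85% were called higher, 8.19% lower and 15% in either direction. With L1CAM replicate 1 left out, 4 were higher and 0 lower, with Notch2 added, in a fit that called 12% of all genes higher and 12.9% lower. At an unadjusted limma p below 0.05, 3 members were higher and 1, Notch1, lower, against 15% and 14.1% of all genes. An ordinary linear model called 1 member higher, Jag2, and 0 lower, against 1.26% and 1.66% of all genes. In Jag2, Dll4 and Jag1 all L1CAM arrays lay above all control arrays, as in 18.6% of all genes. The median difference was 0.10 over the members and 0.02 over all genes. The members were chosen with earlier results of these arrays known, so these counts describe the set and are not independent evidence about it.

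**Figure D1:**
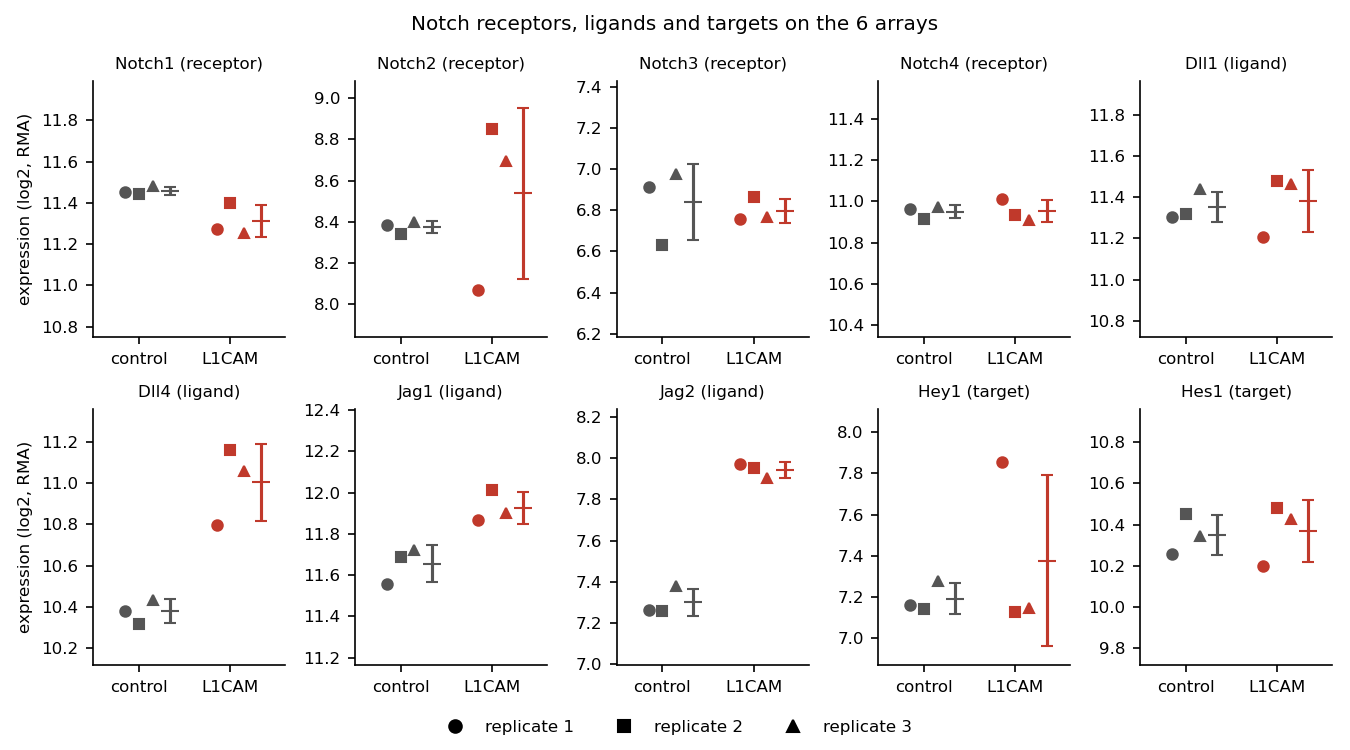
Expression of each of the 10 genes (log2, RMA) on the 3 control arrays (grey) and the 3 L1CAM arrays (red). Marker shapes give the replicate number, the bar beside each group is the mean with its SD, and every panel spans the same log2 range. The groups are apart without overlap for Dll4, Jag1 and Jag2, which are higher in L1CAM cells, and for Notch1, which is lower. L1CAM replicate 1 is the outlying point for Notch2 and Hey1.

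Jag2, a Jagged-type ligand, had the most even rise. It read 7.26, 7.26 and 7.38 in control cells and 7.97, 7.95 and 7.90 in L1CAM cells. All 3 L1CAM arrays were high, and the lowest of them lay 0.52 above the highest control array, while the arrays within a group spanned 0.12 in control cells and 0.07 in L1CAM cells. The difference was 0.64 (SE 0.06), 1.56-fold with a 95% interval of 1.42 to 1.71, and the limma adjusted p was 0.000841. The difference was 0.63 (SE 0.06) without L1CAM replicate 1. Jag2 was called with any of the 6 arrays left out and under all 16 alternatives, with adjusted p between 0.000197 and 0.0343. Among all genes, 4.63% were called with all arrays and with each array left out in turn, and 309 genes rose more than Jag2.

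Dll4, the Delta ligand best known from tip cells and arteries, rose by a similar amount but less evenly. It read 10.38, 10.32 and 10.44 in control cells and 10.79, 11.16 and 11.06 in L1CAM cells. The groups did not overlap, with a gap of 0.36, and L1CAM replicate 1 was the lowest L1CAM array. The difference was 0.63 (SE 0.10), 1.54-fold with a 95% interval of 1.32 to 1.80 and a limma adjusted p of 0.00621. Without L1CAM replicate 1 it was 0.73 (SE 0.06). Dll4 kept its call with any array left out and lost it in an ordinary linear model (adjusted p = 0.0762, range over the 16 alternatives 0.000135 to 0.0762).

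Jag1, the second Jagged ligand and a broadly expressed one, rose least of the 3. Its arrays read 11.56, 11.69 and 11.72 in control cells and 11.87, 12.01 and 11.90 in L1CAM cells. The groups did not overlap, and the gap of 0.14 was no wider than the spread within either group (0.17 and 0.15). The difference was 0.27 (SE 0.07), 1.21-fold with a 95% interval of 1.08 to 1.35 and a limma adjusted p of 0.0376. The call was fragile: it held without L1CAM replicate 1 (difference 0.30, adjusted p = 0.0183) and was lost when any of the other 5 arrays was left out (0.0794 to 0.123). It was also lost on repeated quantile normalization (0.0521) and in an ordinary linear model (0.118), and the 16 alternatives ran from 0.0145 to 0.123.

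Dll1, a Delta ligand with arterial roles, did not pass the test. It read 11.30, 11.32 and 11.44 in control cells and 11.21, 11.48 and 11.46 in L1CAM cells. The groups overlapped, with L1CAM replicate 1 the lowest of the 6 arrays and replicates 2 and 3 the highest. The difference was 0.03 (95% interval -0.17 to 0.23) with a limma adjusted p of 0.87, and 0.12 without L1CAM replicate 1 (adjusted p = 0.24, range over the alternatives 0.244 to 0.991). As a fold, that interval ran from 0.888 to 1.17.

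The 3 ligands that rose are shown with the 250 bases before their RefSeq transcription start, since they moved in the same direction. The windows come from RefSeq on GRCm38.p6, where 8 of the 10 genes were matched and Hey1 and Hes1 were not. They are Dll4 at chr2:119325534-119325783 on the plus strand, Jag1 at chr2:137116521-137116770 on the minus strand and Jag2 at chr12:112929496-112929745 on the minus strand. Each is written 5′ to 3′ on the gene's own strand, and capitals mark the GC box GGGCGG and the CCAAT box CCAAT, on either strand.
Dll4: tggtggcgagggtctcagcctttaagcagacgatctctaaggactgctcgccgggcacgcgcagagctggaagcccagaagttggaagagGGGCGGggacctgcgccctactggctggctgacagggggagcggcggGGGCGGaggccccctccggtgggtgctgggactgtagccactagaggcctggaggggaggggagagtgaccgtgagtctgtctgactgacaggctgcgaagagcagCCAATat
Jag1: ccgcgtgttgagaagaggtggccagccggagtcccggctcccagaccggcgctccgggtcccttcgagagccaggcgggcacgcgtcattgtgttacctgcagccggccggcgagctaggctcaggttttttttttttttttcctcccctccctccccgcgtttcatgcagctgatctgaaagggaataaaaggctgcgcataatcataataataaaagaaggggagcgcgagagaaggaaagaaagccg
Jag2: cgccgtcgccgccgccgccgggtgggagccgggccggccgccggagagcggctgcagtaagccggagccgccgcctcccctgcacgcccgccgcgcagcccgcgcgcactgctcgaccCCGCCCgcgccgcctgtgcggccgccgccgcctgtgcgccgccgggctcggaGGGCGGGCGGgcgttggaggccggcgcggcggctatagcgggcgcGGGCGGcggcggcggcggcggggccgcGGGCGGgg

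The 3 windows differed in composition. GC content was 65.6% for Dll4, 57.2% for Jag1 and 87.2% for Jag2. The Dll4 window held 2 GC boxes and 1 CCAAT box, the Jag2 window 5 GC boxes, of which 2 overlap, and the Jag1 window neither motif. Of all 32851 windows of this length, 32.7% held a GC box and 33.8% a CCAAT box. The RBPJ core TGGGAA, the SOX-type sequence AACAAT and the ETS-type sequence AGGAAG, searched on both strands, did not occur in these 3 windows. Windows with them made up 21.6%, 9.42% and 29.5% of all windows. Shorter forms were not searched, so sites for these factors are not shown to be absent. The shorter GGAA does occur in the Dll4 and Jag1 windows, and ACAAT in the Jag1 window on the other strand. Among the other members, AGGAAG occurred 3 times before Notch4 and 1 time in 1 of the 2 Dll1 windows. No RBPJ core was found in any of the 9 windows of the 8 genes. A match or its lack describes these letters alone.

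The receptors did not pass the test, and each differed in how its arrays were spread. Notch1, the main Notch receptor of endothelium, read 11.45, 11.44 and 11.48 in control cells and 11.28, 11.40 and 11.26 in L1CAM cells. All 3 L1CAM arrays lay below the control arrays, by at least 0.04. Such separation in either direction was seen in 34.6% of all genes. The difference was -0.15 (SE 0.06, 95% interval -0.29 to -0.01) with a limma adjusted p of 0.14, and -0.13 without L1CAM replicate 1 (adjusted p = 0.19). The alternatives gave adjusted p from 0.0791 to 0.352, so Notch1 was not called in any of them.

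Notch4, a receptor largely restricted to endothelial cells, gave nearly the same reading in both groups. It read 10.96, 10.92 and 10.97 in control cells and 11.01, 10.94 and 10.91 in L1CAM cells. The groups overlapped, with a difference of 0.00 (SE 0.05) and a limma adjusted p of 0.98. Its 95% interval ran from 0.918-fold to 1.09-fold, and without L1CAM replicate 1 the difference was -0.03 (adjusted p = 0.79). Notch3, the receptor best known from vascular smooth muscle and pericytes, read 6.91, 6.63 and 6.98 in control cells and 6.76, 6.87 and 6.77 in L1CAM cells. These lie just above the array medians, so Notch3 was not shown to be above background. Its difference was -0.04 (95% interval -0.26 to 0.18, limma adjusted p = 0.81), or -0.02 without L1CAM replicate 1 (adjusted p = 0.90), and control replicate 2 was the lowest of its 6 arrays.

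Notch2, a receptor shared by many cell types, depended on 1 array. The control arrays read 8.38, 8.34 and 8.40, a span of 0.06. L1CAM replicates 2 and 3 read 8.85 and 8.70, above all control arrays, and L1CAM replicate 1 read 8.07, below them all. With all arrays the difference was 0.16 (SE 0.18), with a limma adjusted p of 0.61. Without L1CAM replicate 1 it was 0.40 (SE 0.07), with an adjusted p of 0.00317, in a fit that called 24.8% of all genes. Without any other array Notch2 was not called, and the alternatives spanned 0.00317 to 0.986.

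The targets did not move with the ligands on every array. Hes1, a bHLH repressor that many pathways besides Notch can induce, read 10.26, 10.45 and 10.34 in control cells and 10.20, 10.48 and 10.43 in L1CAM cells. The control range lay within the L1CAM range. The difference was 0.02 (SE 0.09) with a limma adjusted p of 0.92, and the 95% interval ran from 0.878-fold to 1.17-fold. Without L1CAM replicate 1 it was 0.10 (adjusted p = 0.35, range over the alternatives 0.350 to 0.991).

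Hey1, a HES-related repressor and a widely used readout of endothelial Notch activity, was high on 1 array. It read 7.16, 7.14 and 7.28 in control cells, 7.13 and 7.15 in L1CAM replicates 2 and 3, and 7.85 in L1CAM replicate 1. That array lay 0.66 above the control mean, and the other L1CAM arrays lay within or just below the control range. On these and the control arrays Hey1 read not far above the array medians of 6.55 to 6.58. Hey1 was thus not shown to be above background there. The difference was 0.18 (SE 0.18, 95% interval -0.24 to 0.61) with a limma adjusted p of 0.57. It changed sign without L1CAM replicate 1, to -0.05 (SE 0.06, adjusted p = 0.60, range over the alternatives 0.396 to 0.927). Hey1 was highest on the array where Dll4 was lowest within the L1CAM group, and where cell cycle genes were nearest to control. Jag1 was also lowest there, but by little (11.87, against 12.01 and 11.90). Jag2 was nearly level over the L1CAM arrays (7.97 on that array, against 7.95 and 7.90), so its order is not read. The part of cell cycle state in these values was not tested.

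**Figure D2:**
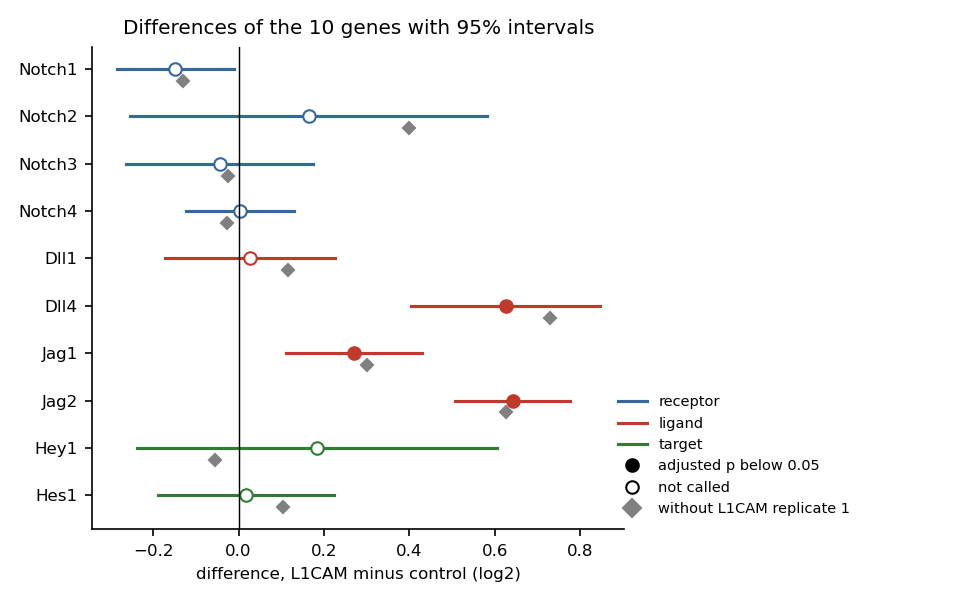
Difference of each gene, L1CAM minus control (log2), as a circle with its 95% interval from limma, coloured by role, filled where the adjusted p is below 0.05. Grey diamonds give the difference without L1CAM replicate 1. Dll4, Jag1 and Jag2 keep their side of 0, Notch2 moves from 0.16 to 0.40 and Hey1 from 0.18 to -0.05.

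Ligands and targets were set against each other by averaging each role on each array, after every gene's mean over the 6 arrays had been set to 0. The ligand mean was -0.24, -0.22 and -0.12 on the control arrays and 0.09, 0.28 and 0.21 on the L1CAM arrays. All L1CAM arrays were above all control arrays, with a difference of 0.39. The target mean was -0.11, -0.03 and -0.01 on the control arrays, and 0.20, -0.02 and -0.03 in L1CAM replicates 1, 2 and 3. Its groups overlapped, and the difference of 0.10 came from L1CAM replicate 1. Hey1, 1 of the 2 targets, was not shown to be above background on the other arrays. Ligand mean minus target mean averaged -0.15 ± 0.04 in control cells and 0.15 ± 0.22 in L1CAM cells (SD, n = 3 arrays each), a difference of 0.29. L1CAM replicates 2 and 3 stood at 0.30 and 0.25, and L1CAM replicate 1, at -0.11, lay within 0.01 of the highest control array. The contrast was 0.42 without L1CAM replicate 1 and 0.21 to 0.31 without any other array. It gets no p, since the members were picked with results known. The receptor mean differed by -0.01, with arrays of both groups mixed.

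**Figure D3:**
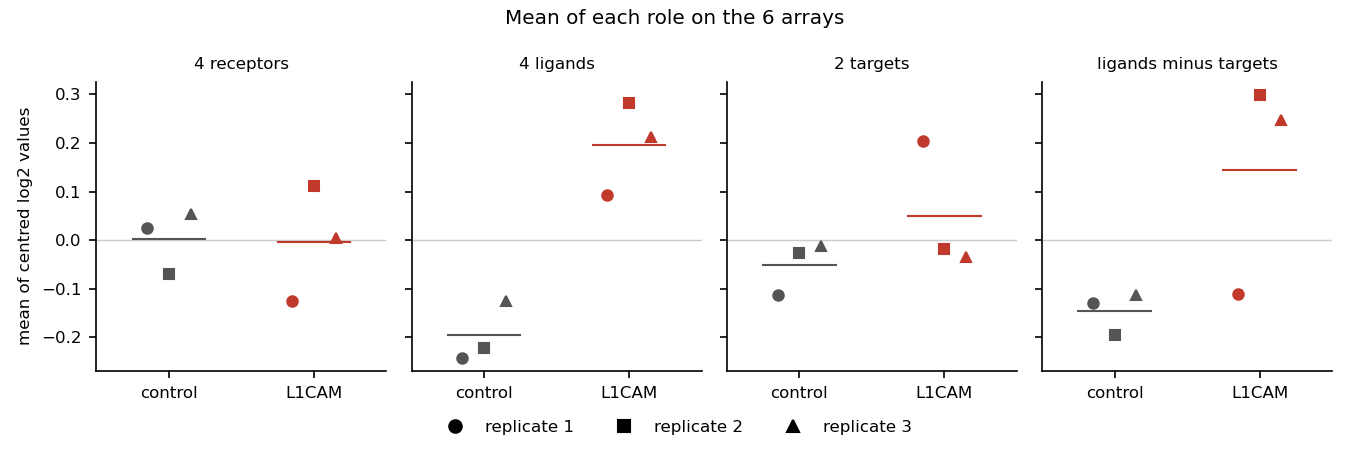
Mean of the centred log2 values of the 4 receptors, the 4 ligands and the 2 targets, and the ligand mean minus the target mean, on each array. Markers give the replicate number and lines the group means. The ligand means of the 3 L1CAM arrays lie above those of the control arrays, and L1CAM replicate 1 has the highest target mean and a contrast at the level of the control arrays.

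Genes with profiles like those of the raised ligands were found by the smallest root mean square difference over the 6 arrays, among 18658 genes with centred values. For Dll4 these were Trim46 (0.042), Wars (0.044) and Ier2 (0.045), with differences of 0.63, 0.63 and 0.59 on the log2 scale. For Jag2 they were Sorbs2 (0.052), Pfkp (0.053) and Pcdh19 (0.059), with differences of 0.56, 0.64 and 0.58. For Jag1 they were Frmd4a (0.012), Cwc25 (0.034) and Zeb1 (0.035), with differences of 0.27, 0.22 and 0.26. The likeness includes the difference between the groups. L1CAM replicate 1 is the lowest L1CAM array for each of the Dll4 and Jag1 neighbours, which the choice by likeness to these profiles favours.

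The wider pathway was read from 7 lists of 117 further genes, of which 113 were measured. In these, 11 genes rose and 15 fell, so 23.0% were called against 15% of all genes, and the median difference was 0.03 against 0.02. The count moved with that over all genes. Without L1CAM replicate 1 it was 42 of 113, in a fit that called 24.8% of all genes. Without L1CAM replicate 2 or 3 it was 16 and 15, where 6.85% and 6.21% of all genes were called. Without control replicate 1, 2 or 3 it was 17, 12 and 12, where 9.07%, 5.18% and 5.34% were called. An ordinary linear model called 6, and 2.91% of all genes. Of 23 called genes named below by the rule for names, 10 kept their calls with every array left out in turn, as did 30.8% of the 2999 called genes overall. These were Ccn3, Aph1b, Aph1c, Dtx4, Neurl1b, L3mbtl3, Bhlhe41, Vegfc, Vegfa and Aplnr.

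Among other ligands and ligand-like proteins 1 of 10 rose and 0 fell, against 6.85% and 8.19% of all genes. On every array 4 of them lay below the array median. At an unadjusted limma p below 0.05, 4 were higher and 0 lower, against 15% and 14.1% of all genes. Leaving out L1CAM replicate 1 gave 2 higher and 0 lower, against 12% and 12.9% of all genes. The riser was Ccn3, a secreted matricellular protein reported to bind Notch1, which read 11.32, 11.06 and 11.16 in control cells and 11.99, 12.22 and 12.12 in L1CAM cells. Its difference was 0.93 (SE 0.09), 1.91-fold, with a limma adjusted p of 0.000998, and the groups were far apart.

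Of 9 genes of receptor cleavage, 3 fell and 0 rose, against 8.19% and 6.85% of all genes. At an unadjusted limma p below 0.05, 1 was higher and 3 were lower, where all genes gave 15% and 14.1%. The counts were again 3 lower and 0 higher without L1CAM replicate 1 (12.9% and 12% of all genes). All 3 that fell belong to gamma-secretase. Aph1b, a scaffold subunit, read 8.70, 8.73 and 8.80 in control cells and 8.21, 7.95 and 7.82 in L1CAM cells, 1.68-fold lower with a limma adjusted p of 0.00363. Aph1c, its close mouse duplicate, was 1.41-fold lower (adjusted p = 0.00621). The copies are so alike that each value is uncertain: a probe of 1 may detect the other. Psen2, a catalytic subunit, was 1.33-fold lower (adjusted p = 0.0113) and lost its call without control replicate 3 (0.0576) or L1CAM replicate 3 (0.0501), with alternatives up to 0.0796. The ADAM proteases and the other gamma-secretase subunits measured did not pass.

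Of 11 enzymes that glycosylate the receptor, 1 fell and 0 rose, against 8.19% and 6.85% of all genes. At an unadjusted limma p below 0.05 it was 2 and 0 (14.1% and 15% of all genes). In the fit without L1CAM replicate 1, 4 were lower and 0 higher (12.9% and 12% of all genes). Poglut3, a protein O-glucosyltransferase, was 1.38-fold lower with an adjusted p of 0.0105. It lost its call without control replicate 2 (0.0551, alternatives up to 0.0858). Lfng, the lunatic fringe that alters which ligand a receptor answers, was chosen for mention after its values were seen. It read 9.10 to 9.12 in control cells, 8.21 and 8.41 in L1CAM replicates 2 and 3, and 9.33 in L1CAM replicate 1. L1CAM replicate 1 was the highest of the 6 arrays and the other L1CAM arrays the lowest, with a difference of -0.46 and a limma adjusted p of 0.29. Without L1CAM replicate 1 the adjusted p was 0.000131, against up to 0.624 in the other fits that leave out an array.

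Endocytosis and turnover genes moved both ways, with 2 of 17 higher and 3 lower, against 6.85% and 8.19% of all genes. Without L1CAM replicate 1 it was 4 and 4, against 12% and 12.9% of all genes. Dtx4, a Deltex ubiquitin ligase that acts on Notch receptors, fell the most. It read 8.41, 8.72 and 8.69 in control cells and 7.19, 7.44 and 7.52 in L1CAM cells, 2.33-fold lower with a limma adjusted p of 0.000907. Neurl1b, a Neuralized-type ubiquitin ligase, read 7.68, 8.04 and 8.18 in control cells and 7.11, 6.83 and 6.83 in L1CAM cells, 2.05-fold lower (adjusted p = 0.00358). In both genes every L1CAM array was below every control array. Neurl3, of the same family, was 1.30-fold lower (adjusted p = 0.0274). Mib2, a Mind bomb ubiquitin ligase that acts on Notch ligands, was 1.41-fold higher (adjusted p = 0.0228), and Dtx3l, a Deltex relative also known as interferon-inducible, 1.37-fold higher (adjusted p = 0.0105). The interferon markers also moved with the groups: their mean was 8.11 to 8.62 on control arrays and 10.1 to 10.6 on L1CAM arrays, and their part in the Dtx3l value was not tested. Mib2 and Neurl3 were called in 1 and 2 of the 6 fits that leave out an array, and Dtx3l in 4.

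In the nuclear complex 2 of 23 genes rose and 2 fell, so 17.4% were called, near the 15% of all genes. The counts were 6 higher and 2 lower without L1CAM replicate 1, where 12% and 12.9% of all genes were called. At an unadjusted limma p below 0.05, 6 were higher and 3 lower, against 15% and 14.1% of all genes. All L1CAM arrays lay above all control arrays in 8 and below them in 3, against 18.6% and 16% of all genes. L3mbtl3, a chromatin reader that works with RBPJ in repression, was the clearest. Its arrays read 9.38, 9.34 and 9.38 in control cells and 8.84, 8.82 and 8.81 in L1CAM cells. The gap between the groups was 0.50 and each group spanned under 0.05. In fold terms, L3mbtl3 was 1.46-fold lower with a limma adjusted p of 0.000879. Hdac1, a histone deacetylase, was 1.22-fold lower (adjusted p = 0.0229). Tle4, a Groucho co-repressor, was 1.17-fold higher (adjusted p = 0.0341), and Cdk8, a Mediator kinase, 1.14-fold higher (adjusted p = 0.0439). These last 3 were called in 1 of the 6 fits without an array, that without L1CAM replicate 1, and their adjusted p reached 0.0925, 0.121 and 0.146. Rbpj itself, singled out here as the pathway's DNA-binding protein, did not pass with all arrays (0.15, SE 0.10, adjusted p = 0.34) and was called only in the fit without L1CAM replicate 1 among those that leave out an array (0.26, adjusted p = 0.0253, up to 0.711 in the others).

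Other HES, HEY and feedback targets had 2 of 13 higher and 1 lower, against 6.85% and 8.19% of all genes. The counts were the same without L1CAM replicate 1, where all genes gave 12% and 12.9%. At an unadjusted limma p below 0.05, 5 were higher and 1 lower, against 15% and 14.1% of all genes, and in 5 all L1CAM arrays lay above all control arrays, as in 18.6% of all genes. Bhlhe41, a bHLH repressor related to the HES family and also tied to the circadian clock, read 7.50, 7.18 and 7.35 in control cells and 7.87, 8.06 and 8.23 in L1CAM cells. All L1CAM arrays were higher, a 1.63-fold rise with a limma adjusted p of 0.00719. Hes2 was 1.17-fold higher (adjusted p = 0.0454) and lost that call in all 6 fits that leave out an array (0.0532 to 0.158). Hes6, known as an antagonist of Hes1, was 1.29-fold lower (adjusted p = 0.0367) and, of the 6 fits that leave out an array, was called only in that without L1CAM replicate 1. The members past the unadjusted threshold alone were Hey2, Heyl and Id3. Hey2, a HES-related repressor of arterial endothelium, differed by 0.28 (SE 0.08, adjusted p = 0.063), and its arrays lay below the array median. Its adjusted p was 0.0346 without L1CAM replicate 1 and up to 0.199 in the other fits without an array. Heyl, of the same family, differed by 0.18 (SE 0.06, adjusted p = 0.089), and Id3, an inhibitor of bHLH factors, by 0.27 (SE 0.09, adjusted p = 0.092). Heyl exceeded the array median on only 2 of the 6 arrays. All 3 L1CAM arrays were above all control arrays in each of Hey2, Heyl and Id3. Nrarp, a feedback inhibitor and a sensitive Notch target, leaned the other way with overlapping groups. It read 10.76, 10.87 and 10.90 in control cells and 10.40, 10.79 and 10.78 in L1CAM cells, with a difference of -0.19 (95% interval -0.44 to 0.06) and an adjusted p of 0.31, or -0.06 without L1CAM replicate 1 (adjusted p = 0.55). Hey2, Heyl, Id3 and Nrarp were chosen for mention after their values were seen.

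Of 30 endothelial genes tied to Notch signalling, 4 rose and 5 fell, against 6.85% and 8.19% of all genes. Without L1CAM replicate 1 it was 5 and 9, against 12% and 12.9% of all genes. The growth factors Vegfc and Vegfa rose 2.27-fold (limma adjusted p = 0.00346) and 1.84-fold (adjusted p = 0.00403). Sox17, an arterial transcription factor, read 7.48, 7.15 and 7.31 in control cells and 8.87, 8.10 and 8.21 in L1CAM cells, 2.12-fold higher (adjusted p = 0.0113). It lost its call without control replicate 2 (0.0575) or 3 (0.0545), with alternatives up to 0.112. Efnb2, ephrin-B2 of arterial endothelium, was 1.26-fold higher (adjusted p = 0.0300) and called in 2 of the 6 fits without an array.

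The falls were led by Aplnr, the apelin receptor, which read 9.83, 10.19 and 10.14 in control cells and 7.36, 7.36 and 7.55 in L1CAM cells. That is 6.18-fold lower, with a limma adjusted p of 5.08e-05. Flt1, a VEGF receptor that acts as a decoy, was 1.76-fold lower (adjusted p = 0.0192) and Unc5b, a netrin receptor, 1.37-fold lower (adjusted p = 0.0199), both called without L1CAM replicate 1 and in no other fit that leaves out an array. Nrp1, a VEGF co-receptor, was 1.30-fold lower (adjusted p = 0.00843), and Ccnd1, cyclin D1, 1.24-fold lower (adjusted p = 0.0176). Nrp1 kept its call with any array left out, and Ccnd1 was called in 2 of these 6 fits, with adjusted p up to 0.0783. Efnb2, Nrp1 and Ccnd1 lie outside the rule for named genes and are given to complete the counts.

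**Figure D4:**
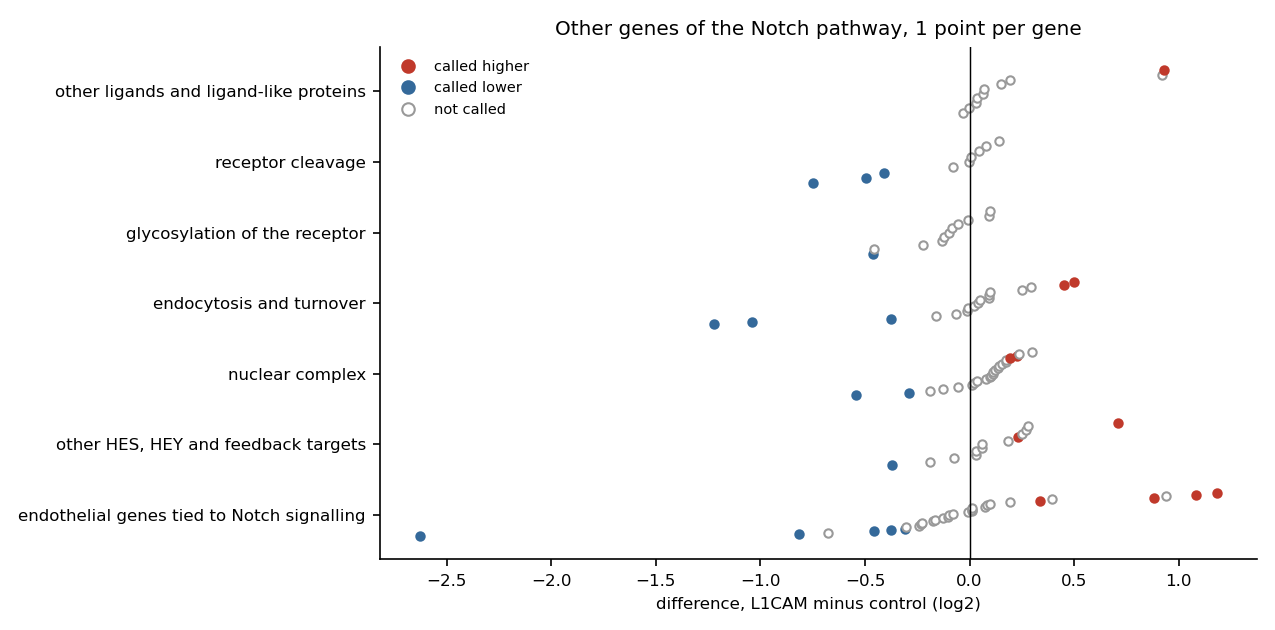
Difference, L1CAM minus control (log2), of 113 further genes of the Notch pathway in 7 lists, 1 point per gene, ordered within a list by size. Filled points passed the adjusted threshold (red higher, blue lower) and open points did not. The receptor cleavage list has 3 falls and no rise, and the largest fall is that of Aplnr at -2.63.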

How the data were processed

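Total RNA from 6 cultures was labelled with biotin and hybridised to Affymetrix arrays. The authors deposited 1 value per probe set and array on the log2 scale. The submitters' processing notes name RMA and Affymetrix Expression Console 1.1. RMA removes background, brings the arrays to a common distribution and merges a set's probes into 1 value. The genome build behind the array, detection calls and scanner files were not used here, so dim genes were not told apart from background, and the number of arrays limits the precision.

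Of 35512 probe sets, 21789 had 1 gene symbol in the platform annotation, 1621 had several and 12102 were not listed. A gene with several was represented by the brightest on average, which gave 19938 genes. Levels of different probe sets were not set against each other. L1CAM and control arrays were compared with limma 3.58.1 (lmFit and eBayes, R 4.3.3), two-sided, with Benjamini-Hochberg adjustment over all genes and group as the only term. The fit was tested on simulated data. Intervals are 95% and come from the moderated fit.

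The members and the lists of pathway and marker genes were chosen with earlier results of these data known. The rule for names took, per pathway list, up to 3 called genes per direction by size, and per raised member the 3 genes with the most similar profile, leaving out predicted genes. Alternatives were another quantile normalization, centring of each array on a median of 0, a filter that kept genes exceeding the array median on 3 or more arrays, a gene's mean or all of its probe sets, a trended or robust prior, an ordinary linear model, array weights, the replicate number as a block, and each array left out. The counts per list without L1CAM replicate 1 were added after seeing the data. Tables and figures used Python 3.11.15, pandas 2.3.3, numpy 2.4.6 and matplotlib 3.10.9.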

Additional observations from a re-analysis of the deposited data

How the results depend on the processing

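Dll4, Jag1, Jag2, Notch1, Notch2 and the ligand minus target contrast kept their direction under every alternative run. Over the 6 fits that leave out 1 array, the differences ran from 0.55 to 0.73 for Dll4, 0.22 to 0.30 for Jag1, 0.62 to 0.68 for Jag2, -0.19 to -0.12 for Notch1, 0.0080 to 0.40 for Notch2, -0.15 to 0.025 for Notch3, -0.026 to 0.023 for Notch4, -0.020 to 0.12 for Dll1, -0.055 to 0.31 for Hey1 and -0.038 to 0.10 for Hes1, the last 5 crossing 0. The contrast ran from 0.21 to 0.42, and the receptor mean from -0.063 to 0.054. Notch4 also changed sign on repeated quantile normalization (-0.0036) and with array weights (-0.019). Members called ran from 2 to 4 over the 6 fits that leave out an array and were all higher. Over all genes the called number ran from 1033 to 4952 (454 to 2386 higher, 579 to 2566 lower), and over the other pathway genes from 12 to 42 (4 to 19 higher, 8 to 23 lower). The lowest totals came without control replicate 2, equalled for pathway genes without control replicate 3, and the highest without L1CAM replicate 1. Without moderation of the variances, the linear model called 581 genes (251 higher, 330 lower), 6 pathway genes (2 higher, 4 lower) and 1 member (1 higher), with Dll4 at 0.63 and Jag1 at 0.27 no longer called. Array weights, which gave L1CAM replicate 1 a weight of 0.323, called 5191 genes (2557 higher, 2634 lower) and 44 pathway genes (21 higher, 23 lower). Jag1 at 0.26 also lost its call on repeated quantile normalization, and the cause of these losses was not tested. Same-numbered control and L1CAM arrays deviated from their group means with correlations across genes of -0.100, -0.102 and -0.0275. Arrays with unlike numbers gave -0.0882 to 0.123. With 3 arrays per group, such correlations cannot settle whether the numbers pair the samples. The replicate block gave 2067 calls over all genes and 2 members, with Jag1 at 0.27 not called (adjusted p = 0.0539).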

Other observations

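Hey1 was not alone in standing out on L1CAM replicate 1. That array lay at least 0.5 on the log2 scale above the other 5 arrays for 40 of 19938 genes and below them for 9, which together are 0.246% of all genes. The margin and the pattern were chosen after the values were seen, so the counts are a description. Among the 10 Notch genes 1 showed it, and among the 113 further pathway genes 4 did. All 5 lay above the other arrays: Hey1, the matrix protein gene Mfap5, the arterial connexin gene Gja5, Sox17 and the growth factor gene Pdgfb. Gja5 read 6.25, 6.70 and 6.68 in control cells, 6.90 and 6.61 in L1CAM replicates 2 and 3, and 8.94 in L1CAM replicate 1 (limma adjusted p = 0.31). Pdgfb read 7.87 to 8.08 in control cells, 8.05 and 7.99 in L1CAM replicates 2 and 3, and 8.99 in L1CAM replicate 1 (adjusted p = 0.34). Mfap5 read 5.55 to 5.72 in control cells, 6.02 and 6.31 in L1CAM replicates 2 and 3, and 7.28 in L1CAM replicate 1 (adjusted p = 0.068). Sox17 and Mfap5 were above the control arrays on every L1CAM array, while Hey1, Gja5 and Pdgfb overlapped with control in L1CAM replicates 2 and 3 or lay just outside that range. Mfap5 exceeded the array median on only 1 of the 6 arrays, L1CAM replicate 1.

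The arrays also carry 6 probe sets annotated with Notch4 together with Sympk, which the rule for 1 symbol leaves out. Their means over the 6 arrays were 3.99 to 4.69, below the array medians, and their differences ran from -0.02 to 0.07.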
